A study of Mus musculus with 4 samples.

Results

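Cybb, Cyba, Ncf1 and Ncf4 encode subunits of the NADPH oxidase of phagocytes, and their transcripts were followed across the immune cells of mouse tumours. They were taken by name as 4 of the 22631 genes measured, and all 4 were detected. The cells came from MC38 colon carcinomas, a transplantable mouse tumour line, grown for 7 days in the flank of mice that carry an IL-12p40-IRES-EYFP allele, which marks cells that make the p40 chain of interleukin-12. Some mice were then given 5 mg/kg of an antibody that activates CD40, a receptor found on dendritic cells, macrophages and B cells, while others stayed untreated, and tumours were taken 2 days later. Live CD45+ cells, that is, blood-derived cells, were sorted and sequenced with inDrops, a droplet method in which every captured RNA carries a random tag, the unique molecular identifier (UMI), so that molecules are counted. There was 1 untreated tumour and there were 2 treated ones, called anti-CD40 tumour 1 and tumour 2. Every mouse carried the reporter, and the untreated group holds 1 animal with no antibody control, so that antibody and animal cannot be told apart there.

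The phagocyte oxidase passes electrons from NADPH across a membrane to oxygen and so makes superoxide, which neutrophils and macrophages use against microbes and which also acts as a signal. Cybb encodes the catalytic chain in the membrane (gp91phox), and Cyba its partner (p22phox), without which the catalytic chain is unstable and which also serves other oxidases of the family. Ncf1 (p47phox) and Ncf4 (p40phox) encode cytosolic subunits that move to the membrane on activation together with a Rac GTPase. Loss of Cybb, Cyba or Ncf1 is a known cause of chronic granulomatous disease.

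In the build that the submitters' processing notes name, GRCm38, with the GENCODE M21 annotation, Cybb (ENSMUSG00000015340.10) lies on chromosome X, 9435252 to 9487771, minus strand. Cyba (ENSMUSG00000006519.11) lies on chromosome 8, 122424776 to 122432930, minus strand. Ncf1 (ENSMUSG00000015950.13) lies on chromosome 5, 134220053 to 134229625, minus strand. Ncf4 (ENSMUSG00000071715.12) lies on chromosome 15, 78244801 to 78262580, plus strand. All 4 are protein-coding. Exons of Ncf1 overlap those of Gtf2ird2 on the other strand, which had 89 UMIs in all cells against 1194 of Ncf1, and the use of strand in counting is not given in the sources used here.

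The promoters are shown because the members fell into different patterns across cell types, described further on. RefSeq promoter entries (GRCm38.p6, 250 bases before the start and 50 from the start on, written 5′ to 3′ on the strand of the gene) matched 3 of the 4 members, Cybb, Cyba and Ncf1. Capitals mark matches on either strand to 2 of the 3 motifs searched, GAGGAA, the core bound by the myeloid factor PU.1, and GAAANNGAA, a core of interferon response elements. The Cybb window is chrX:9469275-9469574 on the minus strand, inside the gene as GENCODE annotates it. The Cyba window is chr8:122432891-122433190 and the Ncf1 window chr5:134229576-134229875, both on the minus strand.
Cybb: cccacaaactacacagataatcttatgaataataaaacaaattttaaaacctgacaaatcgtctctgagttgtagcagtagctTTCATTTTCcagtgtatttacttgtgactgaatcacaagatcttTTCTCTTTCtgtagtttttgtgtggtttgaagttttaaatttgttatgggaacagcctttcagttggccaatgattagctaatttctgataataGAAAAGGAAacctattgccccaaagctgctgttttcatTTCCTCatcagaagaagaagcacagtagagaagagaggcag
Cyba: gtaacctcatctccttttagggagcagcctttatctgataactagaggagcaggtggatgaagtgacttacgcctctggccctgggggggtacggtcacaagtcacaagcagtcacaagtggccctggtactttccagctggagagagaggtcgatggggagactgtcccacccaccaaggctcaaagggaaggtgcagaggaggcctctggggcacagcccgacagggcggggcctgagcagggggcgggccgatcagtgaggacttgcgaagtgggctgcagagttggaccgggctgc
Ncf1: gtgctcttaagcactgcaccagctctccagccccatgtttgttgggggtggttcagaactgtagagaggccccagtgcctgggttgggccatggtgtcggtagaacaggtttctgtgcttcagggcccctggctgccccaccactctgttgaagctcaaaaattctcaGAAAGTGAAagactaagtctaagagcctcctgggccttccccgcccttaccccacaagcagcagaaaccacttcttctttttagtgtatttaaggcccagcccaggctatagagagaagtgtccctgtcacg
The GAGGAA core was found in 1 of the 3, in Cybb on the other strand as TTCCTC, starting at position 10 after the start, where 28.3% of 32851 promoters of the same length held it. GAAANNGAA was found in 2 of the 3, 3 times in Cybb and once in Ncf1, where 8.56% of promoters held it. In Cybb these matches began at positions -167 and -123 on the other strand and at -29 on the strand of the gene, and in Ncf1 at position -82 on the strand of the gene. TTGCNNAA, a C/EBP site, was found in 0 of the 3 windows and in 10.8% of all promoters. No marked match overlapped another. The windows differed in base composition, with 35.3% G and C in Cybb, 60.7% in Cyba and 54% in Ncf1. A match is a description of letters and not a measured site.

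The deposited data held 4440 cells in 12 libraries, 4 for each tumour, and no cell barcode was shared between libraries. The untreated tumour had 1399 cells at a median of 433 UMIs per cell, anti-CD40 tumour 1 had 1226 cells at 979 UMIs, and anti-CD40 tumour 2 had 1815 cells at 865 UMIs. Libraries were sequenced in 4 pools, of which pools 1 and 2 held the untreated tumour with anti-CD40 tumour 1 and pools 3 and 4 held anti-CD40 tumour 2 alone. Cell types and the neutrophil subsets N1a, N1b, N2, N3, N4 and N5 are those of the authors' annotation, in which monocytes, macrophages and dendritic cells form a class called other myeloid cells here. Cells annotated as neutrophils carried all 8 neutrophil markers in each tumour, at 30638, 104156 and 62894 UMIs per 1000000 UMIs of these cells (CPM, the scale of all levels here) in the untreated tumour, tumour 1 and tumour 2. Their summed monocyte and macrophage markers stood at 554, 331 and 475 CPM, with 6, 8 and 9 of 10 genes above 0.

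Levels carry exact Poisson 95% intervals that cover counting error and not the difference between animals. Since the method reads transcript ends, levels are compared between cells for 1 gene and not between genes. Over all cells Cybb had 3209 UMIs, Cyba 5283, Ncf1 1194 and Ncf4 487. The authors' types were drawn from the same RNA, so that differences between types are described and not tested, and neighbours are called separate where the ranges over the 3 tumours did not overlap.

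Cybb was highest in other myeloid cells in every tumour. Its level there was 898 CPM in the untreated tumour (95% interval 822 to 980), 1272 in anti-CD40 tumour 1 (1183 to 1366) and 1005 in anti-CD40 tumour 2 (954 to 1058). In neutrophils it was 42.6 in the untreated tumour, which is 1 UMI of 23468 (1.08 to 237), 547 in tumour 1 (494 to 604) and 429 in tumour 2 (337 to 538). The ranges of these types did not overlap, and neutrophils held 0.430 (0.380 to 0.487) and 0.427 (0.333 to 0.539) of the level of other myeloid cells in the treated tumours. In the untreated tumour that ratio was 0.0474 (0.00120 to 0.265). T cells had 65.3, 0 and 28.0 CPM, from 5, 0 and 3 UMIs, and NK cells had 0 in all 3 tumours, which allows up to 129, 77.5 and 24.5 CPM. The ranges of neutrophils and T cells overlapped because of the untreated neutrophils, and those of T and NK cells overlapped as well.

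Cyba, the membrane partner, was also highest in other myeloid cells but was present in every major class with enough cells. Other myeloid cells had 1560, 1830 and 1625 CPM in the untreated tumour, tumour 1 and tumour 2. NK cells followed with 986, 801 and 458, then T cells with 901, 624 and 664, and neutrophils with 426, 815 and 359. Other myeloid cells were separate from NK cells, and the ranges of NK cells, T cells and neutrophils overlapped. Neutrophils held 0.273 (0.131 to 0.505), 0.446 (0.402 to 0.493) and 0.221 (0.169 to 0.284) of the level of other myeloid cells.

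The cytosolic subunits had the reverse order. Ncf1 in neutrophils stood at 554 CPM in the untreated tumour (13 UMIs), 661 in tumour 1 (471 UMIs) and 417 in tumour 2 (72 UMIs), against 277, 255 and 217 in other myeloid cells. Neutrophils were 2.00 times as high (1.04 to 3.52) in the untreated tumour, 2.59 times (2.15 to 3.13) in tumour 1 and 1.93 times (1.47 to 2.50) in tumour 2. Ncf4, whose product binds a membrane phosphoinositide and supports oxidase activity on phagosomes, stood at 170, 260 and 145 in neutrophils against 105, 126 and 79.0 in other myeloid cells. Its ratios were 1.62, 2.06 and 1.83, and for both genes the ranges of neutrophils and other myeloid cells did not overlap. The untreated ratio of Ncf4 rests on 4 UMIs, with an interval of 0.427 to 4.37.

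**Figure D1:**
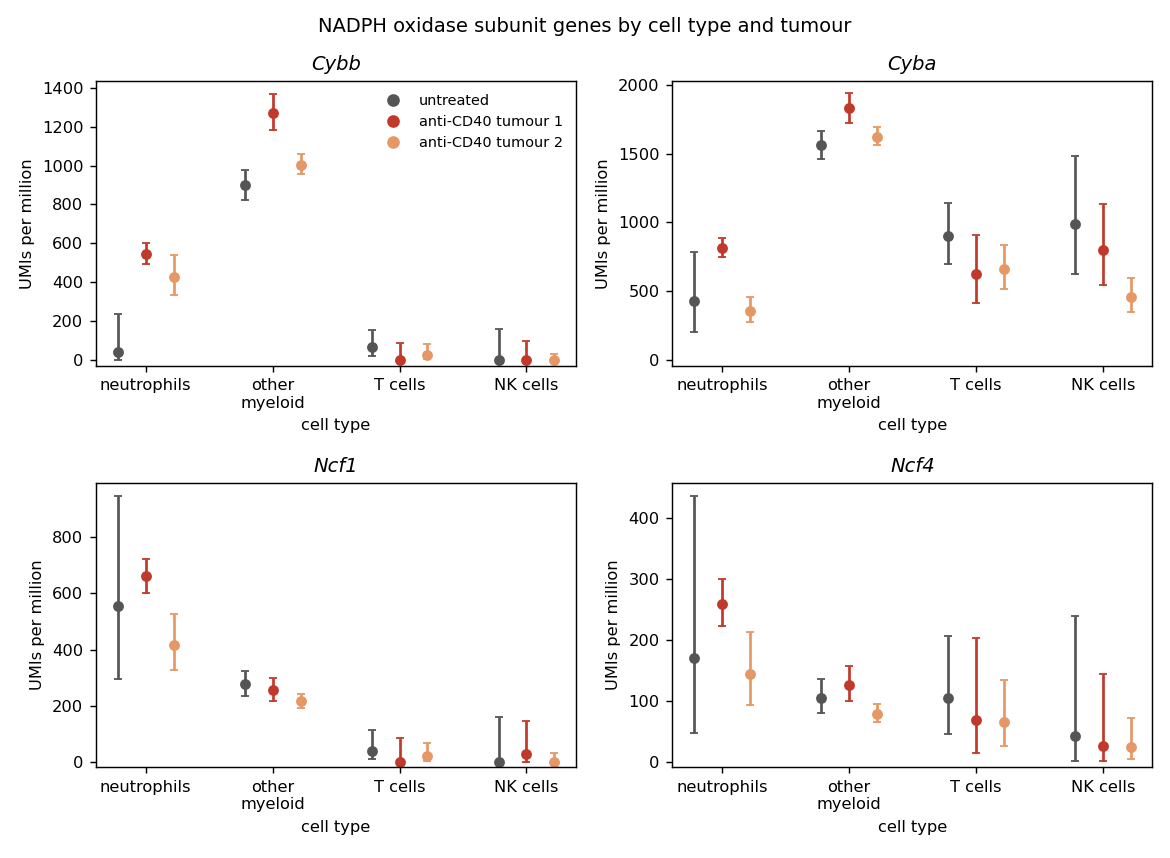
Levels of Cybb, Cyba, Ncf1 and Ncf4 (CPM, vertical axis) in neutrophils, other myeloid cells, T cells and NK cells, with a point for each of the 3 tumours and exact Poisson 95% intervals as bars. Cybb and Cyba were highest in other myeloid cells, and Ncf1 and Ncf4 in neutrophils, in all 3 tumours.

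Transcripts of other myeloid cells were also read in T cells. The part of free RNA in the droplets, or of mixed cells, in these values was not tested. T cells held 7.27%, 0% and 2.79% of the Cybb level of other myeloid cells in the untreated tumour, tumour 1 and tumour 2, and 14.1%, 0% and 8.63% of the Ncf1 level. The macrophage transcript C1qa stood in T cells at 12.3%, 4.75% and 0.289% of its level in other myeloid cells, and Lyz2 at 8.83%, 0.619% and 0.964%. T cells held 57.8%, 34.1% and 40.8% of the Cyba level and 99.3%, 55.0% and 82.8% of the Ncf4 level of other myeloid cells, above the C1qa and Lyz2 shares in each tumour. S100a9, an abundant neutrophil transcript, stood in T cells at 0, 485 and 421 CPM, against 14530, 44304 and 28825 in neutrophils. These T cell values were 0%, 52.5% and 103% of its level in other myeloid cells, where it is also low. The part of neutrophil RNA in the T cell values was not tested. The T cell values of Ncf4 rest on 8, 3 and 7 UMIs. By the marker count, 19.3%, 8.33% and 9.63% of T cells carried at least 3 UMIs of markers of another type, and the order of the 4 types was the same for each member without such cells. Without them, Ncf4 in T cells rested on 4, 3 and 7 UMIs and stood at 62.8, 76.4 and 75.9 CPM. Other myeloid cells without such cells stood at 101.3, 129 and 82.5 CPM.

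The share of such marker-mixed cells among other myeloid cells was higher in the treated tumours, at 0.704%, 17.2% and 6.17% in the untreated tumour, tumour 1 and tumour 2. Over all other myeloid cells, marker-mixed or not, summed neutrophil markers stood at 233, 2471 and 882 CPM, with 8, 7 and 8 of 8 genes above 0. Monocyte and macrophage markers stood there at 21768, 5951 and 16927 CPM, with all 10 above 0 in each tumour. Without the marker-mixed cells, Cybb in other myeloid cells stood at 895, 1074 and 1004 CPM, so that tumour 1 came closer to tumour 2. Cyba then stood at 1569, 2011 and 1645, Ncf1 at 281, 223 and 220, and Ncf4 at 101.3, 129 and 82.5.

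The 3 smallest classes were counted over all tumours. The 27 B cells held 4 UMIs of Cybb, 8 of Cyba, 4 of Ncf1 and 0 of Ncf4 among 17774 UMIs. The 3 plasmacytoid dendritic cells held 1 UMI of Cyba, and the 2 basophils held 1 of Cyba and 3 of Ncf1 among 725 UMIs. These counts are too small for an order.

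The 2 pairs of genes also differed in their shares of the 4 genes' summed UMIs, a measure that does not depend on how much of the 4 a cell type holds. In other myeloid cells Cybb made up 31.6%, 36.5% and 34.4% and Ncf1 9.8%, 7.3% and 7.4% in the untreated tumour, tumour 1 and tumour 2. In neutrophils Ncf1 made up 46.4%, 28.9% and 30.9% and Cybb 3.6%, 24.0% and 31.8%, of 28, 1627 and 233 UMIs. The share of Ncf1 was higher in neutrophils than in other myeloid cells in each tumour, and that of Ncf4 too, at 14.3%, 11.4% and 10.7% against 3.7%, 3.6% and 2.7%. The treated tumours gave nearly the same make-up in other myeloid cells, while in neutrophils tumour 2 had more Cybb and less Cyba, the latter at 26.6% against 35.7% in tumour 1.

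**Figure D2:**
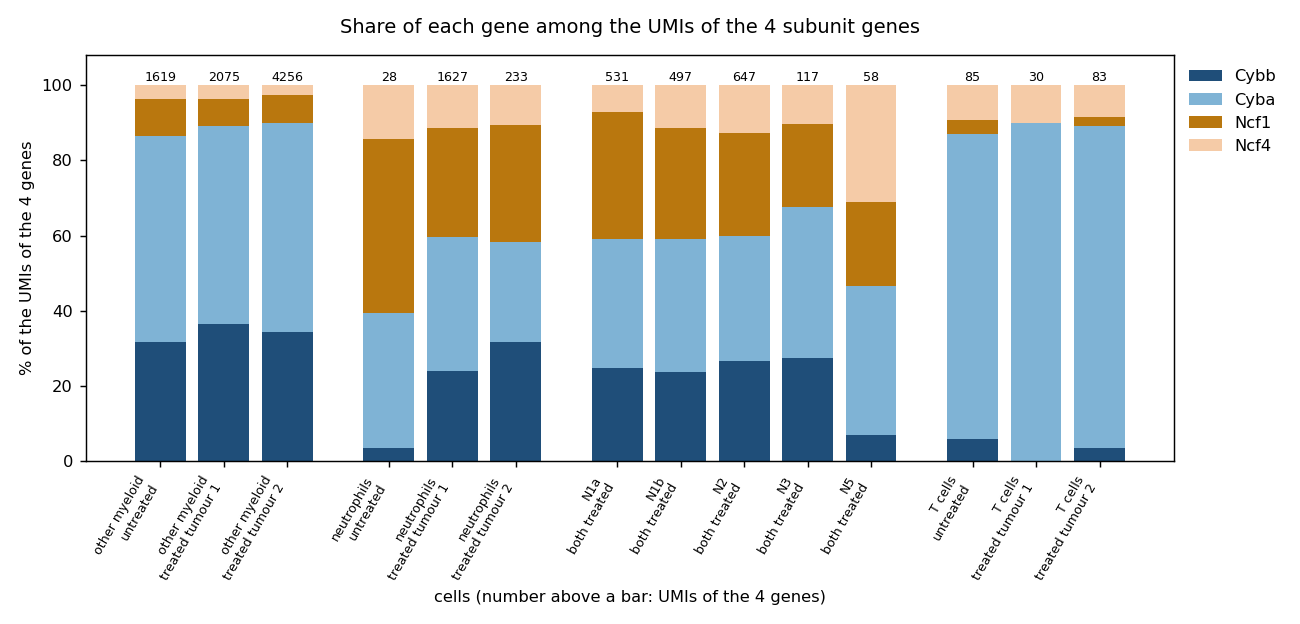
Share of the summed UMIs of the 4 genes held by each gene (percent, vertical axis), as stacked bars for other myeloid cells, neutrophils and T cells of each tumour and for the neutrophil subsets over both treated tumours. Ncf1 and Ncf4 take a larger part in neutrophils than in other myeloid cells, and Cybb is nearly missing from the untreated neutrophil bar, at 3.6% of 28 UMIs.

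Within the neutrophils of the treated tumours, Cybb and Ncf1 were high in N1a, N1b and N2 and low in N3 and N5. The cells numbered 128, 148, 196, 131 and 96 in tumour 1 and 16, 14, 44, 74 and 66 in tumour 2, in the order N1a, N1b, N2, N3 and N5. Cybb levels in that order were 723, 635, 660, 290 and 41.2 CPM in tumour 1, and 1207, 604, 1031, 17.7 and 21.8 in tumour 2. The last 2 values of tumour 2 and the last of tumour 1 rest on 1, 1 and 3 UMIs. N1a exceeded N5 by 17.6 times in tumour 1 (5.85 to 86.4), and by 55.4 times in tumour 2 (8.99 to 2281). N3 was 16.4 times as high in tumour 1 as in tumour 2 (2.74 to 669). Its 31 UMIs in tumour 1 came from 14 of 131 cells, 13 of them from 1 cell, against 1 UMI in tumour 2. The interval takes UMIs as independent and does not cover such clustering in cells. The N5 levels of both tumours and the N3 level of tumour 2 lay within the range of T cells, 0 to 65.3 CPM.

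Ncf1 levels from N1a to N5 were 1067, 800, 712, 150 and 110 CPM in tumour 1 and 997, 604, 818, 177 and 109 in tumour 2. Both tumours thus gave similar levels for each subset, and the step from N2 to N3 was 4.75 times in tumour 1 and 4.63 times in tumour 2. Cyba levels were 1114, 976, 906, 384 and 178 in tumour 1 and 682, 604, 697, 106 and 218 in tumour 2. Cyba was therefore lower in N3 and N5 as well, but tumour 1 stood above tumour 2 in each subset other than N5. The interval of that ratio excluded 1 in N3, at 3.62 (1.53 to 10.4), and included it in the other subsets.

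Ncf4 was less clearly ordered. Its levels were 239, 318, 356, 84.3 and 151 CPM in tumour 1 and 105, 181, 243, 53.0 and 153 in tumour 2. N2 had the highest and N3 the lowest value in both. The values of tumour 2 rest on 2, 3, 8, 3 and 7 UMIs, and their intervals overlapped. In tumour 1 the interval of N2 (280 to 446) overlapped that of N1b (239 to 414). That of N3 (38.5 to 160) overlapped that of N5 (75.3 to 270). N1a over N5 was 1.58 (0.788 to 3.44) in tumour 1 and 0.688 (0.0697 to 3.61) in tumour 2, so that these subsets could not be told apart at this depth. In N5 of both treated tumours together Ncf4 made up 31.0% of the 58 UMIs of the 4 genes, and Cybb 6.9%. N4 held 1 cell in each treated tumour and 2 in the untreated one and is not described.

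**Figure D3:**
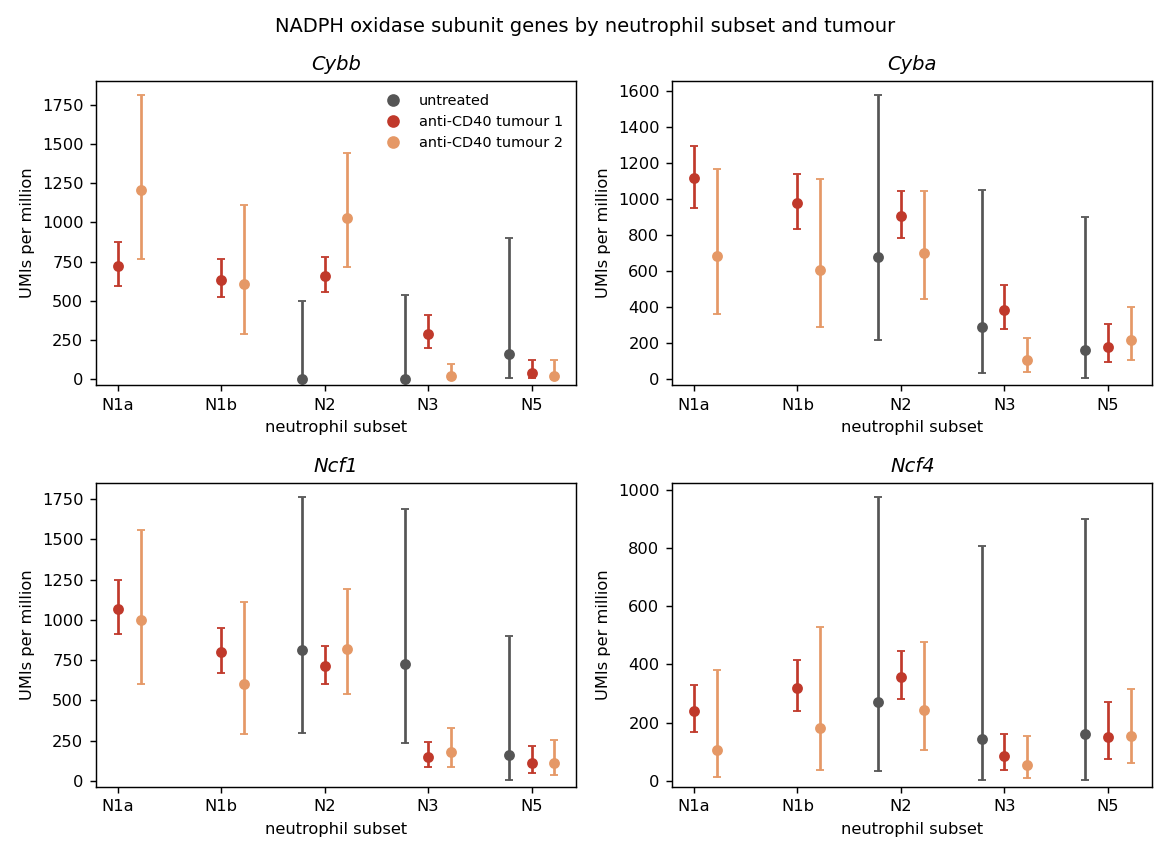
Levels of the 4 genes (CPM, vertical axis) in the neutrophil subsets with at least 10 cells in a tumour, with a point per tumour and exact Poisson 95% intervals. Cybb, Cyba and Ncf1 are high in N1a, N1b and N2 and low in N3 and N5 of the treated tumours. Ncf4 has its highest value in N2 of both treated tumours, with an interval that overlaps that of N1b.

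Untreated neutrophils numbered 49, with 0 cells in N1a, 4 in N1b, 14 in N2, 15 in N3 and 14 in N5. In N2 they had 0 UMIs of Cybb among 7408 UMIs. With 3 UMIs as the limit for the subset, or 405 CPM, N2 of anti-CD40 tumour 1 stood at 1.63 times the limit and N2 of tumour 2 at 2.55 times. These are no bounds, since they leave out counting error on the treated side. The exact upper limit of the 0 was 498 CPM, against 660 in tumour 1 (555 to 779) and 1031 in tumour 2 (714 to 1440). The 34 Cybb UMIs of N2 in tumour 2 came from 10 of 44 cells. The other members in N2 of the untreated neutrophils were 5 UMIs of Cyba, 6 of Ncf1 and 2 of Ncf4, or 675, 810 and 270 CPM. The N2 level of both treated tumours over these was 1.30 for Cyba (0.549 to 4.05), 0.897 for Ncf1 (0.404 to 2.48) and 1.26 for Ncf4 (0.338 to 10.6). In N3 the untreated neutrophils had 0 UMIs of Cybb among 6902 and 5 of Ncf1, which is 724 CPM. Ncf1 in N3 of both treated tumours stood at 0.22 of that level (0.0830 to 0.732). In N5 each member had 1 UMI among 6203.

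The make-up of the subsets was set aside by taking N2, N3 and N5, each with at least 10 cells in every tumour. Given the subset levels of tumour 1 or tumour 2, the 20513 untreated UMIs in these subsets would hold 7.15 or 7.89 UMIs of Cybb, and they held 1. For Cyba the values would be 10.5 or 7.25 and 8 were found, for Ncf1 6.99 or 7.96 and 12 were found, and for Ncf4 4.15 or 3.11 and 4 were found. Cybb lay below both values, while each of the other members reached at least 1 of its pair. The Cybb ratio of treated over untreated in the 3 subsets together was 8.15 (1.45 to 324).

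Per cell, most neutrophils showed few of the 4 transcripts. In tumour 2, 74 Cybb UMIs came from 25 of 215 neutrophils, and in tumour 1, 390 came from 187 of 700. Depth differed between these cells, and shares at equal depth follow.

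Shares of cells with at least 1 UMI were compared after each cell was thinned to 300 UMIs, since depth differed. Cybb was seen in 22.5%, 25.5% and 21.7% of other myeloid cells of the untreated tumour, tumour 1 and tumour 2, and in 0 of 41, 10.3% and 6.0% of neutrophils. The exact intervals of the treated tumours' neutrophils, 8.14% to 12.9% and 3.14% to 10.2%, overlapped. The 0 of 41 allows a share of up to 7.32%. T cells, which are not known as a site of Cybb, had 0.8%, 0% and 0% (1 of 124, 0 of 47 and 0 of 127 cells). Without thinning the Cybb shares were 30.6%, 51.1% and 49.2% in other myeloid cells and 2.0%, 26.7% and 11.6% in neutrophils, at median depths of 425, 1058.5 and 921.5 UMIs and of 435, 926 and 668 UMIs. T cells had median depths of 475.5, 778 and 651 UMIs.

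Ncf1 was seen in 22.0%, 15.1% and 11.5% of thinned neutrophils, in 7.6%, 8.4% and 6.5% of other myeloid cells, and in 0.8%, 0% and 0% of T cells. Cyba was seen in 4.9%, 19.6% and 8.5% of neutrophils, in 34.7%, 41.8% and 35.8% of other myeloid cells, and in 20.2%, 19.1% and 17.3% of T cells. Ncf4 was seen in 4.9%, 6.7% and 3.5% of neutrophils and in 3.4%, 4.5% and 2.6% of other myeloid cells, beside 3.2%, 0% and 3.1% of T cells. The 0 of 47 T cells of tumour 1 allow a share of up to 6.38%, so that the Ncf4 shares of other myeloid cells could not be told from those of T cells at this depth in any tumour. At 300 UMIs, 2 or more of the 4 members were seen together in 15.2% of N1a, 14.0% of N1b, 12.5% of N2, 3.2% of N3 and 1.3% of N5 cells of the treated tumours. The same share was 11.1%, 17.9% and 11.96% in other myeloid cells and at most 0.8% in T cells.

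Other myeloid cells were divided by C1q, complement genes of macrophages, into cells with at least 2 UMIs of C1qa, C1qb and C1qc together and cells with 0. The gate depends on depth. Cybb was close in both, at 858, 1115 and 983 CPM in C1q-positive and 1037, 1353 and 1051 in C1q-negative cells, and slightly higher in the latter in each tumour. Ncf1 stood at 264, 206 and 202 in C1q-positive and at 312, 294 and 257 in C1q-negative cells. A pair of further gates was chosen after the data were seen. C1q-negative cells with at least 2 UMIs of Ly6c2 or Chil3, genes of classical monocytes, had the highest Cybb levels of the gates, at 1696, 1839 and 1597, and Ncf1 levels of 130, 307 and 110.

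Cells with at least 2 UMIs of Ccr7 or Fscn1, genes of mature dendritic cells, went the other way. The 35, 50 and 76 such cells had Cybb at 360 CPM in the untreated tumour (6 UMIs), 0 UMIs among 47798 in tumour 1, and 305 in tumour 2 (23 UMIs). Ncf1 in the same cells stood at 480 (8 UMIs), 418 (20 UMIs) and 557 (42 UMIs), above every other gate of the class in each tumour. Cyba stood at 1439, 1213 and 1022, and Ncf4 had 1, 0 and 2 UMIs. In these cells Ncf1 thus exceeded its level in other myeloid cells as a whole while Cybb lay below it.

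After the antibody, the treated and untreated tumours were compared on UMIs summed per tumour and cell type, with edgeR's quasi-likelihood test. With 1 untreated tumour, the spread comes from the 2 treated tumours and is pooled over genes. Fold changes are treated over untreated with standard errors. No member passed the test at an adjusted p of 0.05 in any cell type tested. In neutrophils 0 of 4 members were called, where 0.442% of 2713 genes were, and at an unadjusted p under 0.05 it was 1 of 4, Cybb, beside 10.9% of all genes tested. DESeq2 called 0 as well, without giving an adjusted p for Cybb and Ncf4.

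Cybb had the largest difference of the members in neutrophils. The 4 untreated libraries held 0, 131, 0 and 0 CPM, and the 8 treated libraries ranged from 279 to 699 with a median of 535. The untreated and treated libraries did not overlap, but libraries of a tumour share the animal and are no replicates. Within pool 1 the untreated libraries stood at 0 and 131 and those of anti-CD40 tumour 1 at 472 and 503, and within pool 2 the untreated ones stood at 0 and the treated ones at 607 and 567. The log2 fold change was 4.07 ± 1.19 with an adjusted p of 0.0982, and the ratio of the summed levels was 12.3 (2.20 to 487), with 12.8 for tumour 1 and 10.1 for tumour 2. The untreated side is 1 UMI. Without pool 4, which left 1389 genes to test, Cybb passed at an adjusted p of 0.0292. Without N1a and N1b the log2 fold change was 3.45 with an adjusted p of 0.279.

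Other measures of the neutrophils moved with the condition. Their median depth was 435, 926 and 668 UMIs in the untreated tumour, tumour 1 and tumour 2, their mitochondrial transcripts stood at 8607, 2741 and 5052 CPM, and their neutrophil markers were lowest in the untreated tumour as given above. The monocyte and macrophage markers stood at 331 and 475 CPM in treated neutrophils against 554 in untreated ones. The untreated value rests on 13 UMIs, too few to tell it from the others. No dendritic, T, NK or B cell marker was above 0 among the 23468 UMIs of untreated neutrophils. Treated neutrophils, at greater depth, held at most 3 UMIs of any of these lists in a tumour. The part of depth, RNA quality and marker level in the Cybb difference was not tested.

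The other members in neutrophils did not pass the test. Cyba had a log2 fold change of 1.03 ± 0.76 (adjusted p = 0.611), Ncf4 0.83 ± 0.88 (0.745) and Ncf1 0.53 ± 0.73 (0.813). The treated tumours lay on either side of the untreated one for all 3, with Cyba at 815 and 359 against 426 CPM. Between the treated tumours, tumour 1 was higher than tumour 2 by 2.27 times for Cyba (1.74 to 3.00), 1.58 times for Ncf1 (1.23 to 2.06), 1.79 times for Ncf4 (1.18 to 2.84) and 1.28 times for Cybb (0.993 to 1.66). N1a, N1b and N2 made up 18.3%, 21.1% and 28% of neutrophils in tumour 1 and 7.44%, 6.51% and 20.5% in tumour 2.

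The sign of Ncf1 depended on the scaling, with a log2 fold change of -0.03 when sums were scaled by library size. The median log2 fold change of all genes tested in neutrophils was 0.29 with TMM, the main scaling, and -0.28 with library size. The 12 genes called were 11 up and 1 down with TMM, and 5 up and 7 down with library size. The direction of Cybb, Cyba and Ncf4 was the same under both.

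In other myeloid cells 0 of 4 members were called, where 0.409% of 7099 genes were, 0 of 4 had an unadjusted p under 0.05, and DESeq2 called 0. Cybb had a log2 fold change of 0.35 ± 0.41 (adjusted p = 0.852), Cyba 0.16 ± 0.42 (0.921), Ncf1 -0.22 ± 0.38 (0.892) and Ncf4 -0.06 ± 0.41 (0.975). By library, Cybb ranged from 799 to 987 CPM in the untreated tumour and from 943 to 1389 in the treated ones, so that the groups overlapped. Its log2 fold change ran from 0.23 to 0.50 over the 13 alternatives, the values within pools 1 and 2 among them, and was 0.23 ± 0.37 (adjusted p = 0.851) without the marker-mixed cells. In C1q-positive cells 0 of 4 were called, where 1.58% of 6185 genes were, with Cybb at 0.34 ± 0.36 (adjusted p = 0.796) and Ncf1 at -0.31 ± 0.36 (0.810). In C1q-negative cells 0 of 4 were called, where 0.252% of 5549 genes were. In both gates 0 of 4 members had an unadjusted p under 0.05, and DESeq2 called 0.

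**Figure D4:**
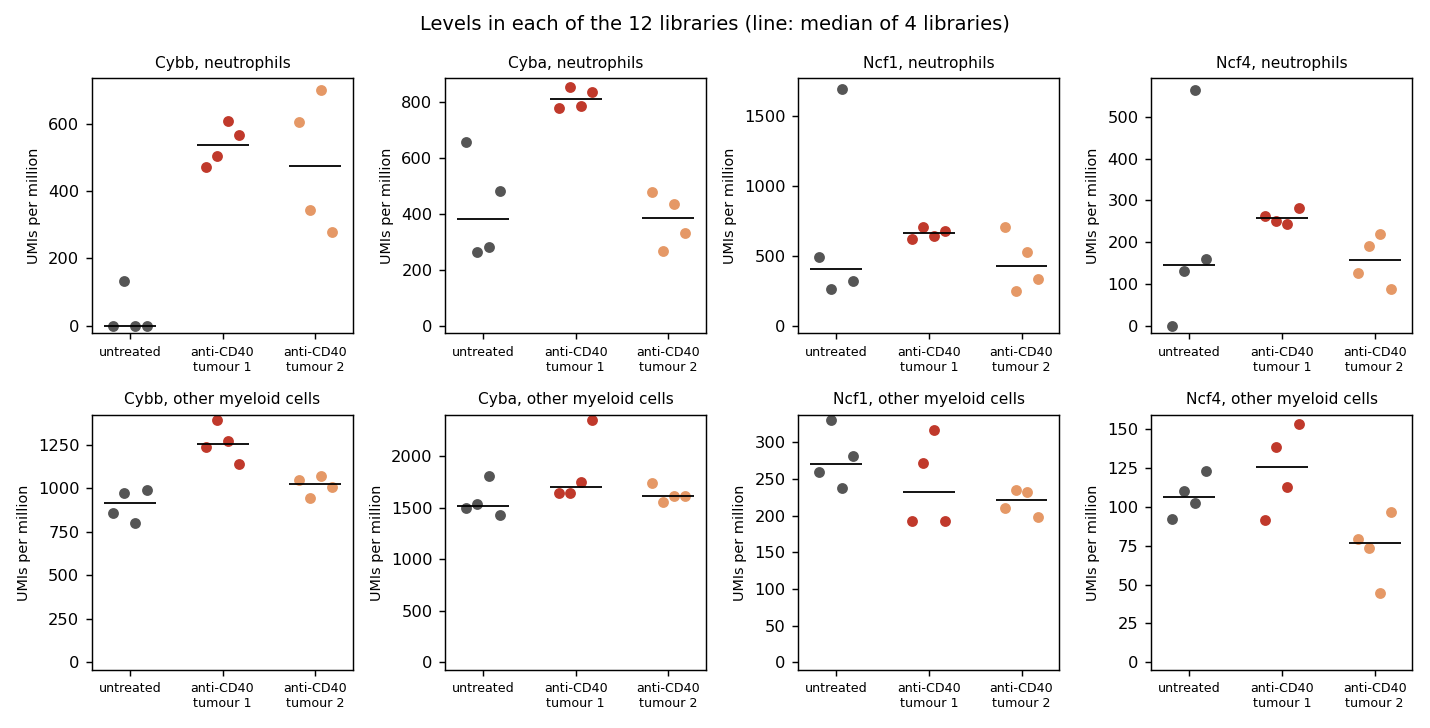
Levels of the 4 genes (CPM, vertical axis) in each library of neutrophils and of other myeloid cells, grouped by tumour, with 4 libraries each. Cybb in neutrophils was above 0 in 1 of 4 untreated libraries, at 131, and between 279 and 699 in the 8 treated libraries.

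In T cells and NK cells Cyba was the member with enough UMIs to be tested, so that 1 of 4 members passed the filter on low counts. In T cells it had a log2 fold change of -0.48 ± 0.32 (adjusted p = 0.638), where 2.04% of 1865 genes were called. In NK cells it had -0.72 ± 0.53 (adjusted p = 0.651), where 1.89% of 794 genes were called. With no test, the NK value was -0.12 within pool 1 and 0.07 within pool 2, so that its sign turned there, and the T cell value was -1.63 within pool 1. The median over all genes with a UMI was 0.51 and 2.89 in these NK settings and -1.08 in that of T cells. These medians take in genes seen in a single condition and are no typical change. Cyba had no unadjusted p under 0.05 in either type, and DESeq2 did not call it.

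Whether the change differed between neutrophils and other myeloid cells was tested as an interaction with the tumour as a block. No member passed, where 0.0779% of 7700 genes did, and Cybb was the 1 of 4 with an unadjusted p under 0.05, beside 5.58% of all genes. The difference of log2 fold changes was 4.48 ± 1.26 for Cybb (adjusted p = 0.265), 1.54 ± 0.86 for Cyba (0.889), 1.49 ± 0.83 for Ncf1 (0.889) and 1.60 ± 1.04 for Ncf4 (0.925). The median over all genes was 1.83, and 0.73 when sums were scaled by library size, so that the values of Cyba, Ncf1 and Ncf4 lay below the median gene. Cybb stood above it, at 3.17 with library size scaling. A gene could pass the filter here through other myeloid cells alone, and 7700 genes were tested against 2713 in neutrophils. The median therefore takes in genes with few neutrophil UMIs and is no typical change of neutrophil genes.

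**Figure D5:**
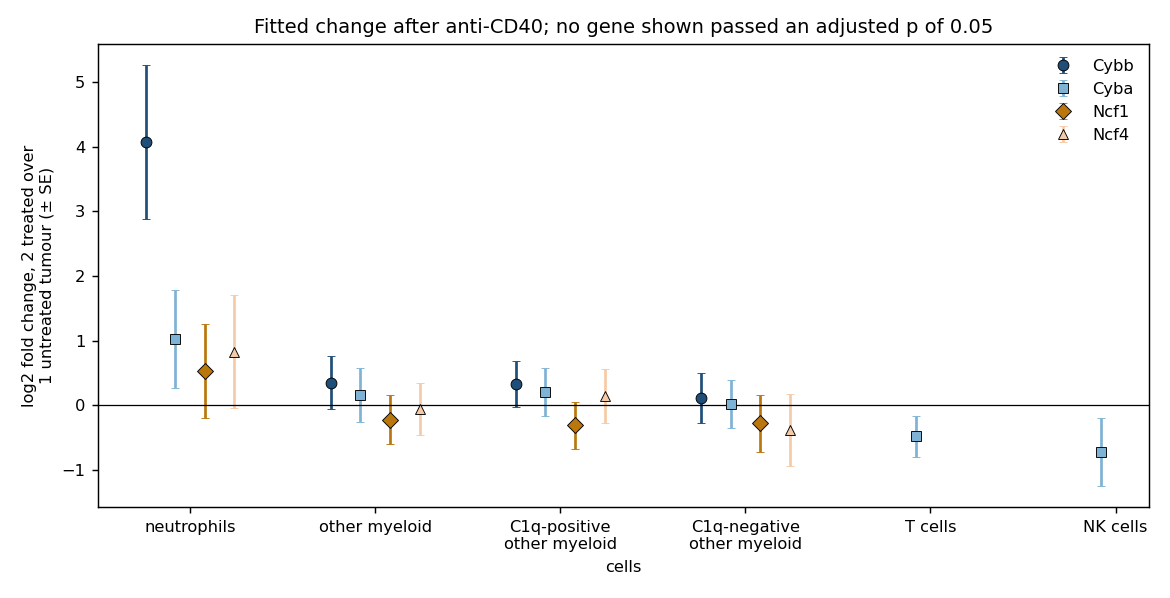
Log2 fold change of each gene after anti-CD40 (treated over untreated, vertical axis) with its standard error, in each fit where the gene passed the filter. Cybb in neutrophils, at 4.07 ± 1.19, is the farthest from 0 among the changes within a cell type, and no value passed the adjusted threshold.

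Partners of the 4 subunits were followed in the same cells. Rac2, the Rac GTPase of blood cells, stood at 682, 1364 and 649 CPM in neutrophils and 339, 363 and 214 in other myeloid cells, and was highest in T cells. Rac1, a broadly expressed GTPase, stood at 724, 436 and 429 CPM in neutrophils. Rac2 and Rac1 had log2 fold changes of 1.12 ± 0.73 (adjusted p = 0.537) and -0.17 ± 0.70 (0.939) in neutrophils. Cybc1, a chaperone of the membrane heterodimer, had 0, 49.1 and 23.2 CPM in neutrophils and did not pass the filter there. Across neutrophil subsets Rac2 went from 1704 CPM in N1a to 165 in N5 in tumour 1 and from 1679 to 153 in tumour 2.

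The wider pathway was read from 6 lists. Other subunits and partners had 4 of 6 genes tested in neutrophils and 6 of 6 in other myeloid cells. Kinases, exchange factors and inhibitors of assembly had 12 and 18 of 19, genes that dispose of superoxide and peroxide 7 and 11 of 12, genes of NADPH supply 4 and 5 of 6, and transcription factors known to act on phagocyte oxidase genes 6 and 7 of 8. No gene of any list was called in neutrophils or other myeloid cells by edgeR or DESeq2. At an unadjusted p under 0.05 there were 3 of 4 NADPH supply genes in neutrophils. In other myeloid cells there were 5 of 11 disposal genes and 3 of 7 transcription factors. Each other list had at most 1 such gene in either class. Over all genes tested, 10.9% in neutrophils and 9.18% in other myeloid cells had such a p. In neutrophils the NADPH supply genes had the highest median log2 fold change, 2.25 over 4 genes, beside 0.29 over all genes. In other myeloid cells the disposal genes had a median of 0.75, with 10 of 11 above 0, beside 0.02 over all genes, of which 51.7% were above 0. The transcription factors there had a median of -0.46, with 5 of 7 below 0. Of the 9 other oxidases and their organisers, Nox1 had 3 UMIs in all cells and the other 8 had 0.

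In C1q-positive cells 4 of the 47 genes of these lists that were tested were called, where 1.58% of all genes were, named here after their values were seen. Cebpb, a transcription factor of myeloid cells, rose from 562 to 2484 and 2380 CPM (log2 fold change 2.16 ± 0.42, adjusted p = 0.00130). Sod2, the mitochondrial superoxide dismutase, rose from 155 to 512 and 427 (1.63 ± 0.39, adjusted p = 0.0154). Prdx6, a peroxidase, rose from 207 to 499 and 608 (1.49 ± 0.38, adjusted p = 0.0272). Irf8, an interferon regulatory factor of the monocyte and dendritic lineage, fell from 629 to 232 and 229 (-1.39 ± 0.34, adjusted p = 0.0202). Cebpb passed under all 7 alternatives run for it. Sod2 did not pass with DESeq2 (adjusted p = 0.163) or without pool 2 (0.0696). Prdx6 did not pass with DESeq2 (0.261), without the filter (0.0634), without pool 1 (0.0574) or without pool 4 (0.0782). Irf8 did not pass with DESeq2 (0.310), without the filter (0.0507) or without pool 1 (0.171). The median depth of C1q-positive cells was 450, 1217 and 1001 UMIs in the untreated tumour, tumour 1 and tumour 2, and its part in these changes was not tested.

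The genes most like each member were taken over 12 sums, the 4 larger cell types of the 3 tumours, by Pearson's r of log2(CPM + 10), among the genes with at least 500 UMIs. The sums of a tumour share libraries and depth, and r is a description. Of the 5 genes most like each member, those reported for Cybb were Lyz2 (r = 0.98), Apobec1 (0.94), Ccl9 (0.94) and Gm21188 (0.93). Lyz2 encodes lysozyme of myeloid cells. For Ncf1 these were Lpcat2 (0.99), Ifi204 (0.97), Clec5a (0.97), Tlr13 (0.96) and Pilra (0.96), among them a nucleic acid sensor of phagocytes, Tlr13. For Ncf4 these were Rab6a (0.96), Rhog (0.95), Trib1 (0.95), Slfn2 (0.94) and Actn1 (0.94). Those reported for Cyba were Arpc1b (0.92), Emp3 (0.90), Pou2f2 (0.90) and Plxnb2 (0.88), of which Arpc1b is a subunit of the actin-nucleating complex. No member was among the 5 genes most like another member. Between the members, r was 0.83 for Cybb with Ncf1, 0.83 for Ncf1 with Ncf4 and 0.70 for Cybb with Ncf4. With Cyba, r was 0.51 for Cybb, 0.15 for Ncf1 and 0.04 for Ncf4.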

How the data were processed

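Single-cell RNA sequencing gave whole-number UMI counts per cell and gene, deposited by the authors without normalisation. The submitters' processing notes name bcl2fastq, STAR and GRCm38. Software versions, the counting tool, strand handling and any removal of cells or doublets by the authors are not given in these sources. Cell types and neutrophil subsets are the authors' deposited annotation. All deposited cells were kept, without a doublet caller. The members and lists were chosen with earlier results of these data known.

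Counts were summed over the cells of a type in each tumour and compared in R 4.3.3 by edgeR 4.0.16, with robust quasi-likelihood fits after TMM scaling and the filterByExpr filter. Benjamini-Hochberg adjustment ran over all genes of a type, with a threshold of 0.05. This leaves 1 residual degree of freedom, from the treated tumours, so the untreated tumour is taken to vary as they do. The fit moves each gene's spread towards a trend over all genes. The weight of that trend, in prior degrees of freedom, had an infinite median in neutrophils, T cells, NK cells and the interaction. The spread used there was in the main the trend and not that of the gene. The median was 15.5 in other myeloid cells, 45.2 in C1q-positive and 22.0 in C1q-negative cells. Each tumour is 1 animal, and p-values rest on a spread between tumours that is shared by genes. The script was checked on simulated data. The alternatives were DESeq2 1.42.0, library size scaling, no filter, each pool left out, cells with at least 3 UMIs of another type's markers left out (marker-mixed cells), the cells of lowest depth left out, each treated tumour or pool alone, and N1a and N1b left out. Levels in CPM were computed here from the deposited counts, with exact Poisson intervals. Ratios have conditional binomial and shares Clopper-Pearson intervals, at 95%, and all of them reflect counting error alone. Where no UMI was seen, 3 UMIs were taken as the limit. Always named were the members, Rac1, Rac2 and Cybc1, then list genes called in neutrophils or other myeloid cells, and the 5 genes most like each member by r. Some genes this rule names are not reported here.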

Additional observations from a re-analysis of the deposited data

Results flagged for a closer look

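Of 24 groups of 4 libraries of 1 tumour and cell type, 3 had a library that stood apart from the other libraries of its group. The rule set the gap to the nearest library against the range of the 4. Its chance rate, about 1 in 20, is for continuous values. It does not hold at counts of a few UMIs, so the 3 cannot be set against it. In other myeloid cells of anti-CD40 tumour 1, Cyba reached 2352 UMIs per 1000000 UMIs (CPM) in 1 library (306 UMIs, 120 cells) and 1638 to 1749 in the others. In untreated neutrophils, Cybb was at 131 in 1 library, which is 1 UMI of 7608, and at 0 in the others. A lone UMI beside libraries at 0 always meets this rule. In untreated neutrophils, Ncf1 was at 1693 in 1 library, which is 6 UMIs of 3545 in 8 cells, and at 263 to 493 in the others.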

How the results depend on the processing

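Of 210 values of single members under an alternative, 193 kept their direction and side of the threshold or moved by less than 1 standard error, and 58 of 59 counts stayed. Most were counts of called members, at 0 of at most 4 tested, which left little room to move. The rest counted members by share of cells with a UMI or by a clear highest cell type. The exception was the count of called members in neutrophils. It ranged from 0 to 1 when each pool was left out in turn, the 1 being Cybb without pool 4. Over its tested alternatives the adjusted p of Cybb in neutrophils ran from 0.0292 to 0.619. Of the tested log2 fold changes, 7 changed sign. Ncf1 in neutrophils was -0.028 with library size scaling and -0.080 without N1a and N1b. Ncf4 in other myeloid cells was 0.034 without marker-mixed cells and ran from -0.19 to 0.0086 with a pool left out, positive without pool 3. Without pool 1 the sign turned for Ncf4 in C1q-positive cells, which ran from -0.15 to 0.25 with a pool left out, and in C1q-negative cells for Cybb, from -0.13 to 0.42, and Ncf1, from -0.36 to 0.028. The cause was not tested. The fitted fold of Cybb in neutrophils without pool 1 or within pool 2 depends on a prior count, since the untreated sum is then 0, and is no bound. Within pool 1, with no test, Cyba was 1.89, Ncf1 1.85 and Ncf4 2.77 in neutrophils, and Cyba was 2.11 within pool 2 and 1.81 for tumour 1 alone. The median over all genes with a UMI was 2.43 within pool 1, 3.23 within pool 2 and 2.39 for tumour 1 alone. These medians take in genes with no UMI in untreated neutrophils, whose values depend on a prior count. They are therefore no typical change to set the members against. Among the genes that passed the filter in the main fit, the median was 0.29. Cyba was -1.63 in T cells and -0.12 in NK cells within pool 1. The sign of 4 values without a test turned, for Cyba in NK cells within pool 2 (0.068) and for Ncf4 in other myeloid cells within pool 1 (0.22), within pool 2 (0.13) and for tumour 1 alone (0.19).

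Counts of genes called depended on the setting. In neutrophils the 12 genes were 3 without pool 1, 23 without pool 2, 7 without pool 3, 20 without pool 4, 7 without the filter and 2 without N1a and N1b. In other myeloid cells the 29 were 89 with library size, 14 with DESeq2, 141 without the filter, 174 without marker-mixed cells, 4 without the cells of lowest depth, and 1 to 21 with a pool left out, the 1 without pool 2. In T cells the 38 were 3 with DESeq2, 22 without marker-mixed cells and 19 to 32 with a pool left out. In NK cells the 15 were 1 with DESeq2, 8 without the filter and 1 to 16 with a pool left out. In C1q-positive cells the 98 were 16 with DESeq2 and 55 to 124 with a pool left out, and in C1q-negative cells the 14 were 45 with library size, 1 with DESeq2, 56 without the filter and 0 to 60 with a pool left out. The 6 genes of the interaction were 0 to 28 with a pool left out. With 49 untreated neutrophils, depth limits what can be said of any member there.
No paired analysis was possible because pools 1 and 2, which hold both conditions, hold the same untreated and treated animal, so that no residual degree of freedom between animals is left. The values within each pool are given without a test.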
